A study of Mus musculus with 16 samples.

Results

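The mouse gene Tnfsf10, which encodes the death ligand TRAIL, was described together with 8 interferon-stimulated genes, Ifit1, Ifit3, Isg15, Irf7, Bst2, Oasl2, Ifi27 and Usp18, in bulk brain RNA of mice given the CETP inhibitor evacetrapib or its vehicle. The members were taken by gene symbol from the 55487 genes of the count table, and all 9 were found. Tnfsf10 was selected on its measured difference between evacetrapib and vehicle in these same mice, and the 8 interferon-stimulated genes were set beside it to ask whether they move with it. The differences between evacetrapib and vehicle are therefore given for the 9 genes as a description, with no test. The 16 mice were female, heterozygous for their transgenes, on the C57BL/6J background, and they formed 4 groups of 4 by genotype and treatment. The CETPtg animals carry human CETP, a plasma lipid transfer protein that mice lack. APPtg/CETPtg mice carry in addition human APP with the Swedish and Indiana mutations under the Thy1 promoter, which is active in neurons, so both genotypes express CETP and no mouse here is free of it. Every mouse, controls included, received a diet with 1% cholesterol from 11 weeks of age and daily intraperitoneal injections for 11 weeks, of evacetrapib at 30 mg/kg or of the vehicle, Kolliphor EL-glucose.

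TRAIL is a membrane-bound or shed ligand of the TNF superfamily that can trigger apoptosis through a death receptor, and in immune cells its gene is among those that interferons switch on. Type I interferons bind their receptor and activate a transcription factor complex that includes IRF9, which binds interferon-stimulated response elements in the promoters of many antiviral genes. Ifit1 encodes a protein that binds foreign RNA and Ifit3 another protein of that family. Isg15 encodes a ubiquitin-like modifier, and Usp18 the protease that removes it and damps receptor signalling. Irf7 encodes a transcription factor that amplifies the response, Bst2 the virus-tethering protein tetherin, Oasl2 a member of the oligoadenylate synthetase family and Ifi27 a small hydrophobic protein. In the brain, microglia, endothelial cells and some astrocytes and neurons can show this response, also without infection.

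The promoter windows of the members differ in the response element. Windows of 300 bases around start sites of RefSeq's annotation of GRCm38.p6 were at hand for 7 of the 9 genes. For Ifi27 and Usp18 none was among the windows used here. The windows were searched on both strands for GAAANNGAAA (TTTCNNTTTC on the other strand), the core of the element, and overlapping matches were counted. It occurred in the windows of Ifit1, Ifit3, Isg15 and Bst2, and not in those of Tnfsf10, Irf7 and Oasl2. Of all 32851 windows, 3.44% hold it. Of the 84 windows of a longer list of interferon response genes, 51.2% hold it. The stretches with the matches are shown to compare the spacing of the repeats, 5′ to 3′ on the strand of the gene, with every matching base in capitals. The Tnfsf10 window is shown whole, from 250 bases before the start site, because its letters hold no match.
Ifit1, chr19:34640760-34640838, plus strand: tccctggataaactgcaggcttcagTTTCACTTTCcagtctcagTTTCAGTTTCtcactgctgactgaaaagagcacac
Ifit3, chr19:34583348-34583441, plus strand: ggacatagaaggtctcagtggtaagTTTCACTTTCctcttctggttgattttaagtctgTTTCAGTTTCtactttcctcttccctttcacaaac
Isg15, chr4:156200850-156200921, minus strand: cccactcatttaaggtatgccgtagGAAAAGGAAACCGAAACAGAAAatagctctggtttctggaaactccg
Bst2, chr8:71537562-71537627, minus strand: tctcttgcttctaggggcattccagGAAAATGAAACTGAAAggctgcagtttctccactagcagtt
Tnfsf10, chr3:27316827-27317126, plus strand: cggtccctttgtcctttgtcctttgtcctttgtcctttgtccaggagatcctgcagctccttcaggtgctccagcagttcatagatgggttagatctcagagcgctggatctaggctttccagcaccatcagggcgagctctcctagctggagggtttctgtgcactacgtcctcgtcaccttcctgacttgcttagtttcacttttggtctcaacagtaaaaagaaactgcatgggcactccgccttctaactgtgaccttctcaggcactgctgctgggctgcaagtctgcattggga
In Ifit1 the 2 matches are separate and begin 104 and 85 bases before the start site, and in Ifit3 they begin 156 and 122 bases before it. Isg15 has 3 overlapping matches in one run, the first 78 bases before the start site, and Bst2 has 2 overlapping matches that begin 130 and 124 bases before it. A match is a description of the letters, and the absence of one in this window says nothing about control from elsewhere.

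Between 21391335 and 55453789 reads per mouse fell on genes, fewest in the evacetrapib-treated APPtg/CETPtg group (median 23110676). The neuronal, astrocyte and oligodendrocyte markers that define brain tissue were all expressed, the 8 neuronal markers at a summed 7506 to 8842 CPM (counts scaled to a common library size by TMM) per mouse. In bulk tissue, fewer cells of a type and less RNA per cell cannot be told apart. By the labels, index plate columns were split by genotype and rows by treatment, so that column cannot be told apart from genotype nor row from treatment. Mice of a group are separate animals, and in all 24 pairs their counts differed beyond counting noise (chi-square per degree of freedom at least 4.75). Levels are given in CPM, and differences are log2 fold changes from edgeR.

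All 9 genes passed the filter of 10 counts in at least 4 mice, and each had more than 10 counts in all 16 mice, the lowest count being 28 for Usp18. Per kilobase of transcript, Ifi27 was highest with a median level of 27.4 CPM per kb over the 16 mice, followed by Ifit3 with 7.75, Bst2 with 5.79, Isg15 with 3.80, Oasl2 with 2.59, Irf7 with 1.98, Ifit1 with 1.82, Usp18 with 1.35 and Tnfsf10 with 0.54. Ifi27 was above Ifit3 and Bst2 above Isg15 in all 16 mice. Oasl2 was above Irf7 in 12 mice, and with the length of all annotated exons in place of the longest coding transcript Ifit1 moved above Oasl2 and Irf7, so the order of these 3 is not fixed. The counts of Ifit1 and Ifit3 are uncertain where near-identical copies lie beside them on chromosome 19. Irf7 shares 45 exonic bases with Phrf1, and Usp18 shares 124 with a noncoding gene, both on the opposite strand, and the strand setting of the counting is not given in the sources used here.

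Tnfsf10 (ENSMUSG00000039304, chromosome 3 of GRCm38, 27317028 to 27342427) was higher with evacetrapib in both genotypes. The vehicle-treated CETPtg mice had 2.13, 1.88, 2.21 and 2.29 CPM and the evacetrapib-treated CETPtg mice 3.93, 2.94, 2.89 and 3.09 CPM. The vehicle-treated APPtg/CETPtg mice had 1.77, 1.62, 2.33 and 2.82 CPM and the evacetrapib-treated APPtg/CETPtg mice 3.40, 2.60, 5.39 and 3.30 CPM. The treatment groups did not overlap in CETPtg mice, where 3.92% of the genes tested have groups that do not overlap. They overlapped in APPtg/CETPtg mice, where vehicle replicate S8 lay above evacetrapib replicate F and where 4.29% of genes do not overlap. The log2 fold change was 0.67 over all mice (standard error, SE, 0.14), 0.60 in CETPtg mice (SE 0.20) and 0.73 in APPtg/CETPtg mice (SE 0.21). Because Tnfsf10 was selected on this difference, these values may be too large, and their SE describes spread and is no test. Tnfsf10 lay between 36 and 178 counts in a mouse, and its spread within groups, a coefficient of variation of 8.28 to 32.7%, began near the 8.998 to 11.7% that counting alone gives.

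Most of the 8 interferon-stimulated genes varied more between mice of the same group than Tnfsf10, and they varied together. Oasl2 (ENSMUSG00000029561, chromosome 5, 114896936 to 114912234) shows the pattern. It had 11.1, 8.79, 7.39 and 6.45 CPM in vehicle-treated CETPtg mice and 5.27, 14.7, 3.88 and 3.97 CPM in evacetrapib-treated CETPtg mice. It had 2.81, 21.1, 6.48 and 10.6 CPM in vehicle-treated APPtg/CETPtg mice and 12.6, 15.6, 19.4 and 5.34 CPM in evacetrapib-treated APPtg/CETPtg mice. Replicate B stood high among the evacetrapib-treated CETPtg mice and H low among the evacetrapib-treated APPtg/CETPtg mice, and S5 and S6 lay at the ends of the vehicle-treated APPtg/CETPtg group, 7.51-fold apart. The same mice marked the ends for Usp18 (ENSMUSG00000030107, chromosome 6, 121245906 to 121270917), with 3.002, 2.31, 2.68 and 1.80 CPM in vehicle-treated CETPtg and 1.39, 2.94, 1.46 and 1.08 CPM in evacetrapib-treated CETPtg mice. Usp18 had 1.41, 5.23, 2.37 and 2.43 CPM in vehicle-treated APPtg/CETPtg and 3.70, 5.68, 5.35 and 1.30 CPM in evacetrapib-treated APPtg/CETPtg mice, the last value again from replicate H. Over the 8 genes and 4 groups the coefficient of variation was 2.64 to 77.3% with a median of 40.1%, where counting alone gives 3.12 to 12.5%.

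**Figure D1:**
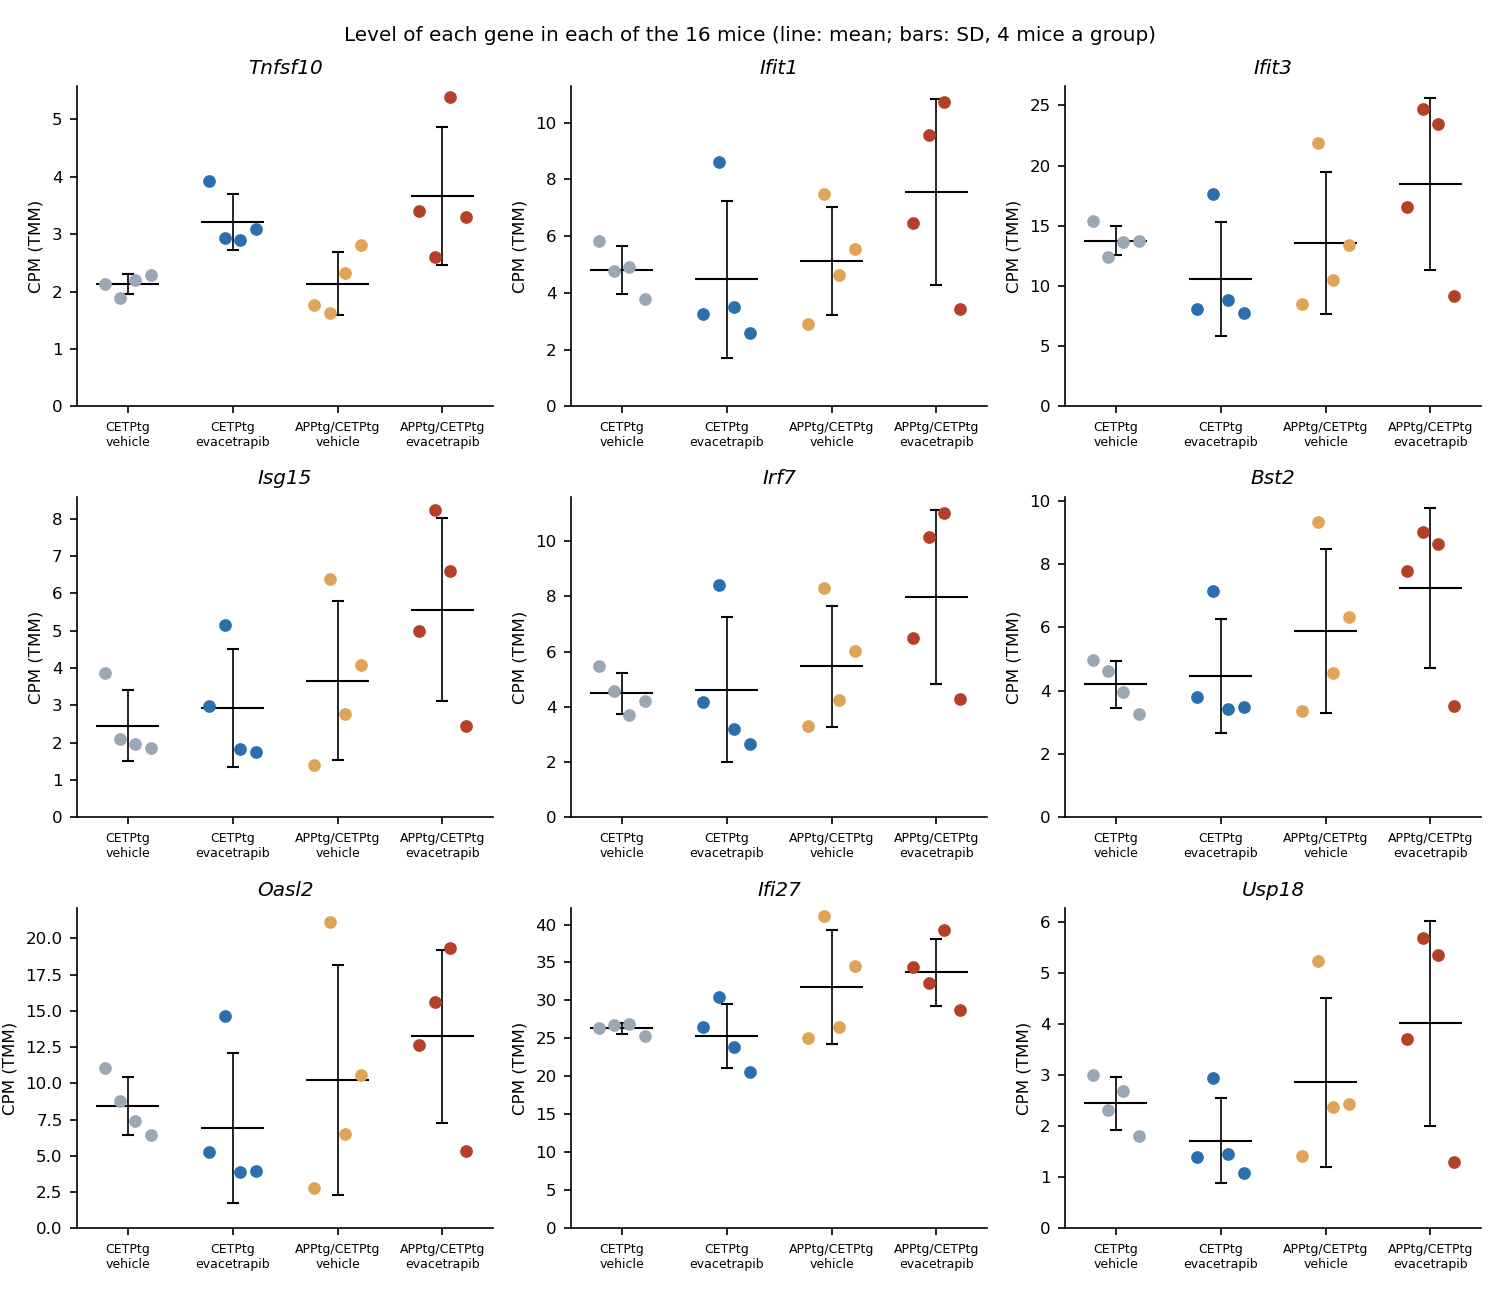
CPM on TMM library sizes (y axis, from 0, a separate scale for each gene) of the 9 genes in the 4 groups, 1 point a mouse, in the order of the replicate labels, with a line at the mean and bars of 1 SD (n = 4). Tnfsf10, which was selected on its treatment difference, separates the treatments in CETPtg mice. The 8 interferon-stimulated genes spread widely within groups, with replicate B high, H low, and S5 and S6 at opposite ends.

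The other members followed these mice. Isg15 (ENSMUSG00000035692, chromosome 4, 156199424 to 156200818) ran from 1.41 CPM in S5 to 6.40 CPM in S6 within the vehicle-treated APPtg/CETPtg group, and was 2.45 ± 0.952 CPM in vehicle- and 2.93 ± 1.58 CPM in evacetrapib-treated CETPtg mice (SD, n = 4 each). In APPtg/CETPtg mice it was 3.67 ± 2.13 CPM with vehicle and 5.57 ± 2.46 CPM with evacetrapib (SD, n = 4 each). Ifit1 (ENSMUSG00000034459, chromosome 19, 34640871 to 34650009) lay between 2.58 and 10.7 CPM over all mice, Ifit3 (ENSMUSG00000074896, chromosome 19, 34583531 to 34588731) between 7.75 and 24.7, Irf7 (ENSMUSG00000025498, chromosome 7, 141262706 to 141266481) between 2.64 and 11.0 and Bst2 (ENSMUSG00000046718, chromosome 8, 71534255 to 71537456) between 3.28 and 9.33. For each of these 4 genes the evacetrapib-treated APPtg/CETPtg group had the highest mean, for example 7.55 ± 3.29 CPM for Ifit1 and 18.5 ± 7.15 CPM for Ifit3 (SD, n = 4 each), and its lowest mouse was replicate H, at 3.43 and 9.19 CPM. No treatment group of the 8 genes was free of overlap with its vehicle group in either genotype.

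Between evacetrapib and vehicle, the 8 interferon-stimulated genes had smaller and less uniform values than Tnfsf10. Tnfsf10 was selected on this difference, so its larger value was built in by the choice and the contrast is a description. Over all mice their log2 fold changes were all above 0 but small, from 0.0052 for Usp18 to 0.43 for Isg15, with a median of 0.12 against 0.67 for Tnfsf10. In CETPtg mice 3 of the 8 were higher with evacetrapib, and the values ran from -0.53 for Usp18 and -0.39 for Ifit3 to 0.25 for Isg15, with a median of -0.09. In APPtg/CETPtg mice 8 of 8 were higher, from 0.08 for Ifi27 to 0.60 for Isg15, with a median of 0.48. The 95% intervals were wide and included 0 for all 8 genes in both genotypes. Examples are -1.36 to 0.30 for Usp18 in CETPtg and -0.18 to 1.28 for Ifit1 in APPtg/CETPtg mice. A gene was called where its adjusted p was 0.05 or less and its fold change reached 5% in either direction. As background, 0.0107% of all genes were called over all mice, 0% within CETPtg and 0.043% within APPtg/CETPtg mice, and no call is given for the 9 members. Of all 18609 genes tested, 49.2% were higher over all mice and the median was near 0 in each comparison. Without replicate B the median of the 8 genes over all mice was 0.00020 and in CETPtg mice -0.52, and without S6 the median over all mice was 0.28, so that these values depend on single mice.

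**Figure D2:**
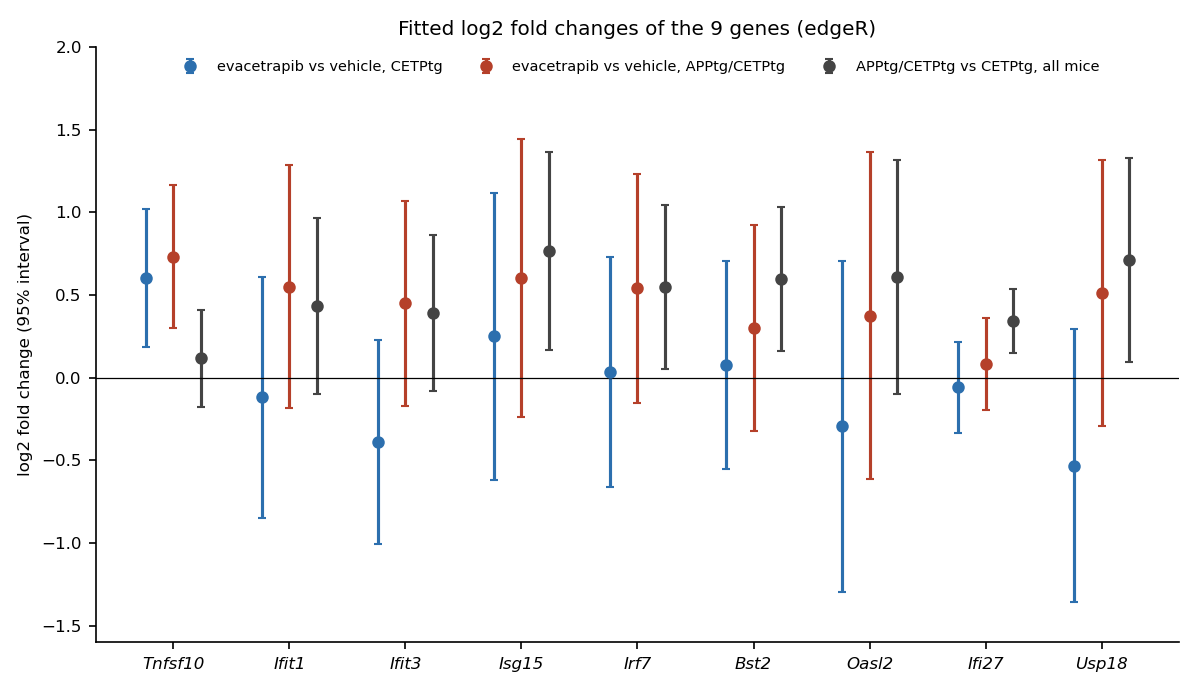
Log2 fold changes with 95% intervals (y axis) of the 9 genes for evacetrapib versus vehicle in CETPtg mice (blue) and APPtg/CETPtg mice (red), and for APPtg/CETPtg versus CETPtg over all mice (dark grey). The treatment points of Tnfsf10 lie at 0.60 and 0.73, and since it was selected on this difference their intervals are no test. The points of the 8 interferon-stimulated genes lie on both sides of 0 for treatment in CETPtg mice and above 0 for treatment in APPtg/CETPtg mice. Their treatment intervals all include 0 in both genotypes. For genotype the 8 points lie above 0, and the intervals of Ifit1, Ifit3 and Oasl2 extend below 0.

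The genotype comparison was not used to choose the genes and was tested. All 8 interferon-stimulated genes were higher in APPtg/CETPtg than in CETPtg mice, with log2 fold changes from 0.34 to 0.77 and a median of 0.57, and 1 of them, Ifi27, passed the thresholds, where 17.7% of all genes tested did. Ifi27 (ENSMUSG00000064215, chromosome 12, 103434211 to 103440239) rose by 0.34 (SE 0.093, adjusted p = 0.0152 in the quasi-likelihood fit of edgeR, Benjamini-Hochberg adjusted over all genes). The 4 vehicle-treated CETPtg mice had 26.4, 26.8, 26.8 and 25.3 CPM and those given evacetrapib 26.5, 30.4, 23.8 and 20.6 CPM. The APPtg/CETPtg mice had 25.04, 41.1, 26.5 and 34.5 CPM with vehicle and 34.5, 32.3, 39.3 and 28.8 CPM with evacetrapib. The evacetrapib-treated APPtg/CETPtg mice lay above all CETPtg mice except that replicate H was below replicate B, and the vehicle-treated mice of the 2 genotypes overlapped.

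The other interferon-stimulated members had larger but less certain genotype differences than Ifi27, and Tnfsf10 a smaller one. The log2 fold change was 0.77 for Isg15 (SE 0.29, adjusted p = 0.0694, edgeR), 0.60 for Bst2 (SE 0.21, adjusted p = 0.0536) and 0.71 for Usp18 (SE 0.30, adjusted p = 0.103), and Irf7, Oasl2, Ifit1 and Ifit3 lay between 0.39 and 0.61 with adjusted p from 0.120 to 0.267. Tnfsf10 had a log2 fold change of 0.12 (SE 0.14, 95% interval -0.17 to 0.41, adjusted p = 0.620, edgeR). The share of members called, 1 of 9, is close to the 17.7% of all genes, and 5 of 9 had an unadjusted p below 0.05, against 30.6% of all genes. Without replicate B or without S5, 4 members were called, without H 3, and without S1 or S7 2, so that the count depends on single mice, while Ifi27 was called in all 16 fits that left out 1 mouse (adjusted p 0.0055 to 0.0348, edgeR).

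Within the treatments, the genotype difference of the 8 genes had a median of 0.27 in vehicle-treated mice, where 7 of 8 were higher, and of 0.81 in evacetrapib-treated mice, where 8 of 8 were higher. In vehicle-treated mice 0 of the 9 members were called, where 10.4% of genes were, and 0 had an unadjusted p below 0.05. In evacetrapib-treated mice 0 were called as well, where 2.99% of genes were (1 by DESeq2, 0 by limma-voom and 3 without a filter on low counts), and 7 had an unadjusted p below 0.05, against 19.3% of all genes. The largest value was that of Usp18, 1.24 (SE 0.39, adjusted p = 0.0895, edgeR), and the next were 0.94 for Oasl2 and for Isg15 (adjusted p = 0.287 and 0.205, edgeR). These comparisons share their mice with the treatment comparisons within each genotype. Since the 8 genes vary together, the counts of members repeat much the same differences between mice, and the share of all genes is background only.

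The difference between the genotypes in the evacetrapib effect was tested directly. It was above 0 for all 8 interferon-stimulated genes, from 0.14 for Ifi27 to 1.04 for Usp18, with a median of 0.59, and 0 of the 9 members were called, as were 0% of all genes in this comparison. Adjusted p ran from 0.727 to 0.935 for the 8 genes (edgeR), and 0 members had an unadjusted p below 0.05, the nearest being Ifit3 with 0.84 (SE 0.42, 95% interval -0.04 to 1.71). The intervals are wide, and a difference of more than 1 log2 unit was within them for each of the 8 genes but Ifi27. For Tnfsf10 the difference was 0.13 (SE 0.29, 95% interval -0.47 to 0.73, adjusted p = 0.944, edgeR).

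To ask whether Tnfsf10 varied with the interferon-stimulated genes among mice treated alike, each mouse's log2 CPM was expressed as its deviation from its group mean. In 10 of 16 mice all 8 interferon-stimulated genes lay on one side of their group means, above in 4 mice (B, G, S1 and S6) and below in 6 (C, D, H, S4, S5 and S7). Pearson's r between pairs of the 8 genes was 0.79 to 0.97 over the 28 pairs, with a median of 0.93, lowest for Ifi27 with Usp18 and highest for Bst2 with Oasl2. The points share their libraries and the group means removed, and these values are a description.

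**Figure D3:**
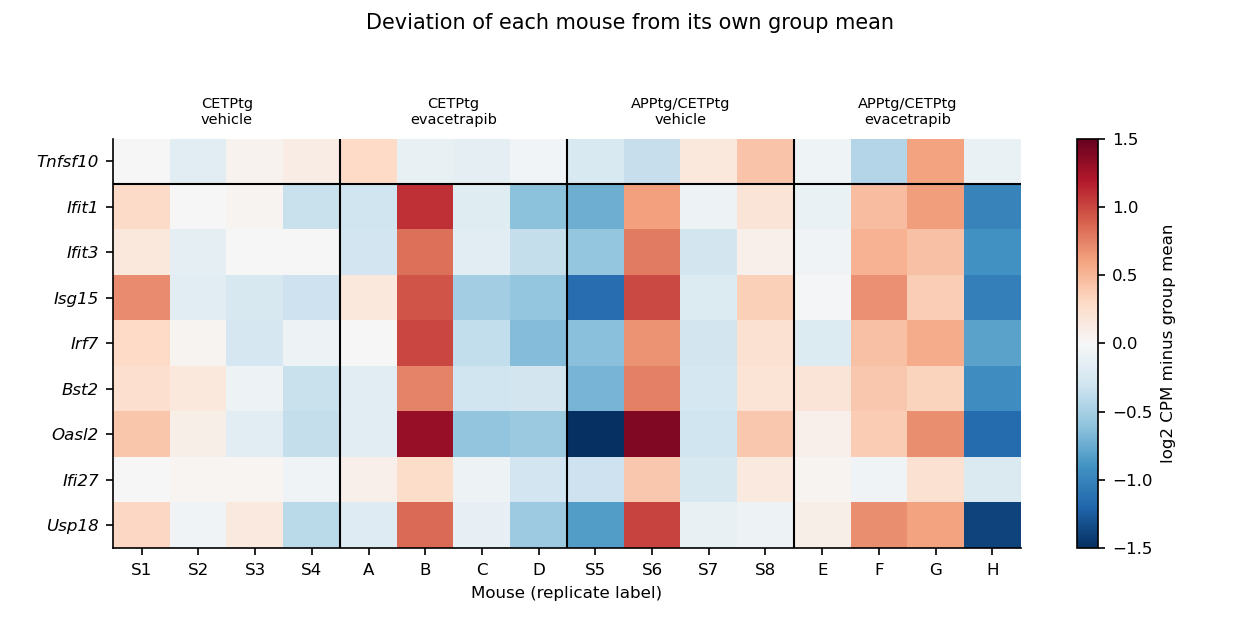
Deviation of log2 CPM from the mouse's own group mean (colour, red above and blue below) for the 9 genes (rows) in the 16 mice (columns, by group). The 8 lower rows change colour together from mouse to mouse, and no relation of the Tnfsf10 row to them was detected.

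Tnfsf10 did not show a detectable relation to any of the 8 genes. Its r with them was -0.07 to 0.17 and Spearman's rho -0.16 to 0.17, the lowest of the 8 permutation p-values for r was 0.606 and all 8 were 0.931 after Benjamini-Hochberg adjustment over the 8 relations (100000 permutations within groups, two-sided). For rho the lowest permutation p was 0.579 and every adjusted value was 1. The 95% intervals of r reached from -0.60 to 0.66, so that with 16 mice a moderate relation in either direction is within them. Without the 2 mice farthest from the median of each gene, r was -0.29 to 0.38. Within CETPtg mice it was -0.36 to 0.03 and within APPtg/CETPtg mice -0.01 to 0.22. With the mean of the 8 genes r was 0.016, from -0.23 without replicate G to 0.25 without S6. Tnfsf10 and the mean of the 8 genes were both above their group means in G, S1 and S8 and both below in C, D, H, S2 and S5. In the other mice they lay on opposite sides, B, F and S6 among them, which were above in the mean of the 8 genes and below in Tnfsf10.

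**Figure D4:**
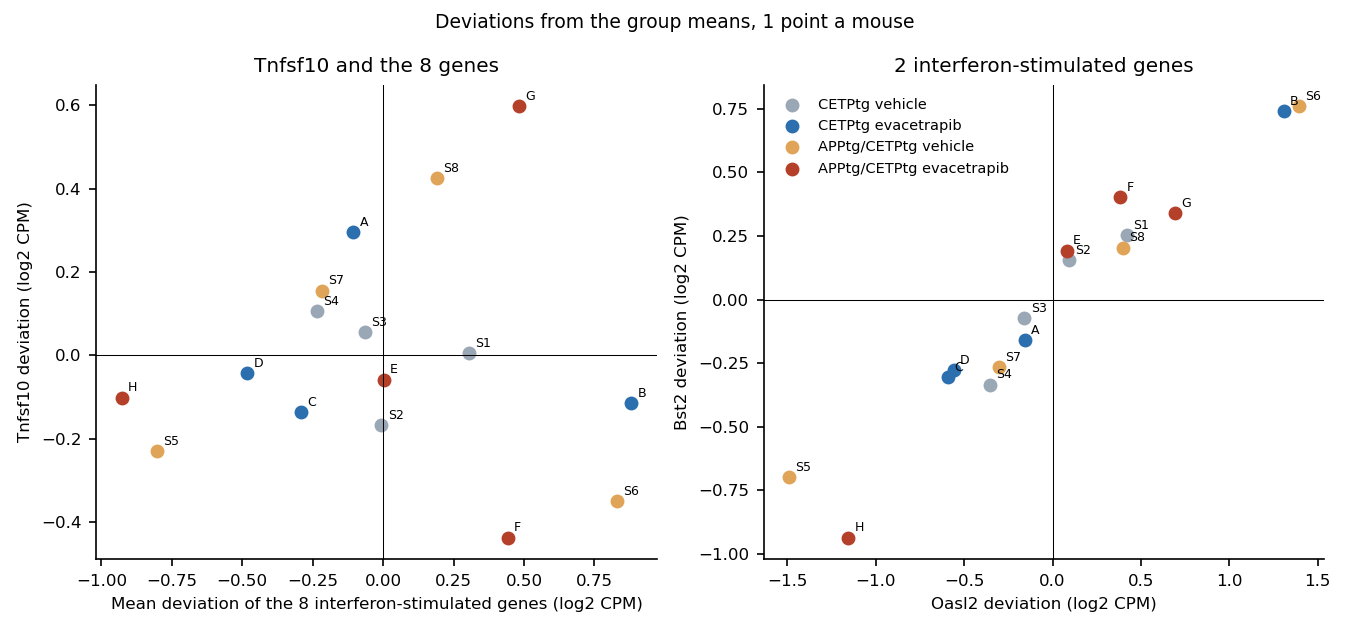
Deviations of log2 CPM from the group means, 1 point a mouse labelled by replicate, coloured by group. On the left Tnfsf10 (y axis) is plotted against the mean of the 8 interferon-stimulated genes (x axis, r = 0.016), and on the right Bst2 (y axis) against Oasl2 (x axis, r = 0.97).

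The genes whose deviations were most like those of Tnfsf10 differed from those nearest to the 8. The 8 genes nearest to Tnfsf10 were Dazap2 with r = 0.87, Shroom4, Serinc5, Efhd1, Cd82, Shtn1, Rasgrp3 and Itgb4 with 0.83. Among those nearest to the mean of the interferon-stimulated genes were Rtp4, Lgals3bp, Irf9, Ifit3b, Parp14, Ifi44 and Oas1a, the last with r = 0.93. Irf9 encodes a subunit of the complex that binds the response element, and these genes belong to the longer list of 88 interferon response genes, from which the 9 members were left out. Of the 50 genes nearest to Tnfsf10, 1 was in that list, and of the 50 nearest to the mean of the 8 genes 30 were. Over the 87 genes of the list that were tested the median r was 0.72 with the mean of the 8 genes, 66 of them above 0.5, and 0.22 with Tnfsf10, 13 of them above 0.5. Over all 18609 genes tested the median r was near 0 with both. Of them, 1108 were above 0.5 with the mean of the 8 genes and 865 with Tnfsf10. The list of 87 therefore lay above all genes with Tnfsf10 too, in its median and in its share above 0.5, though by less than with the mean of the 8. These likenesses over 16 mice are descriptions.

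Transcripts of the interferons themselves were near the limit of detection. None of the 21 interferon ligand genes passed the filter, 19 of them, Ifnb1 and the interferon alpha genes included, had 0 counts in every mouse, and the other two, Ifne and Ifng, had at most 2 counts in a mouse. A count of 0 allows a level of up to 0.0541 to 0.140 CPM, 3 counts in the deepest and the shallowest library, for counting error only. All 16 genes of interferon receptors and their signalling were tested. Between evacetrapib and vehicle over all mice 0 were called (median log2 fold change 0.0060, adjusted p of at least 0.604, edgeR). Unadjusted p was below 0.05 for 1, against 7.91% of all genes. Between the genotypes 3 of the 16 were called, a share close to the 17.7% of all genes, all higher in APPtg/CETPtg mice. Irf3, a transcription factor of the interferon genes, rose by 0.19 (SE 0.052, adjusted p = 0.0165, edgeR), Ifngr2, a subunit of the interferon gamma receptor, by 0.12 (SE 0.039, adjusted p = 0.0356) and Irf9 by 0.37 (SE 0.12, adjusted p = 0.0420). Of the sensors of foreign nucleic acid 10 were tested, 0 were called by treatment over all mice, and 1, Dhx58, by genotype, where 17.7% of all genes were.

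The longer interferon response list gave values like those of the 8 members. Most of its genes vary together with the 8 from mouse to mouse. Counts of its genes, here and in the comparisons that follow, are therefore not counts of independent genes. Between evacetrapib and vehicle over all mice, 77 of its 87 tested genes were higher (median on the log2 scale 0.16), and 0 were called, as were 0 by DESeq2 and by limma-voom. Unadjusted p was below 0.05 for 21 of them, against 7.91% of all genes. In CETPtg mice 39 of 87 were higher, the median was -0.01 and 2 had an unadjusted p below 0.05, against 5.80% of all genes. In APPtg/CETPtg mice 81 of 87 were higher, the median was 0.40 and 33 had an unadjusted p below 0.05, against 9.01% of all genes. In that comparison 0 were called, as were 0 by limma-voom, but 1 by DESeq2 and 8 without a filter on low counts. The smallest p in that comparison were those of the guanylate-binding proteins Gbp7, with a log2 fold change of 0.75 (SE 0.19, adjusted p = 0.226, edgeR), and Gbp4, with 2.06 (SE 0.54, adjusted p = 0.226). Both values rest largely on replicate G, which also had the highest Tnfsf10 level of all mice, 5.39 CPM. Replicate G had 24.8 CPM of Gbp4, where the other evacetrapib-treated APPtg/CETPtg mice had 4.19, 2.52 and 2.92 CPM. Without this mouse Gbp4 had a log2 fold change of 0.66 and Gbp7 of 0.45. Without replicate H 55 of the genes had an unadjusted p below 0.05, without S7 21, without S5 19 and without G 18. Both genotypes gave a positive value for 36 genes, 45 were lower in CETPtg and higher in APPtg/CETPtg mice, 3 the reverse, and 3 lower in both.

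**Figure D5:**
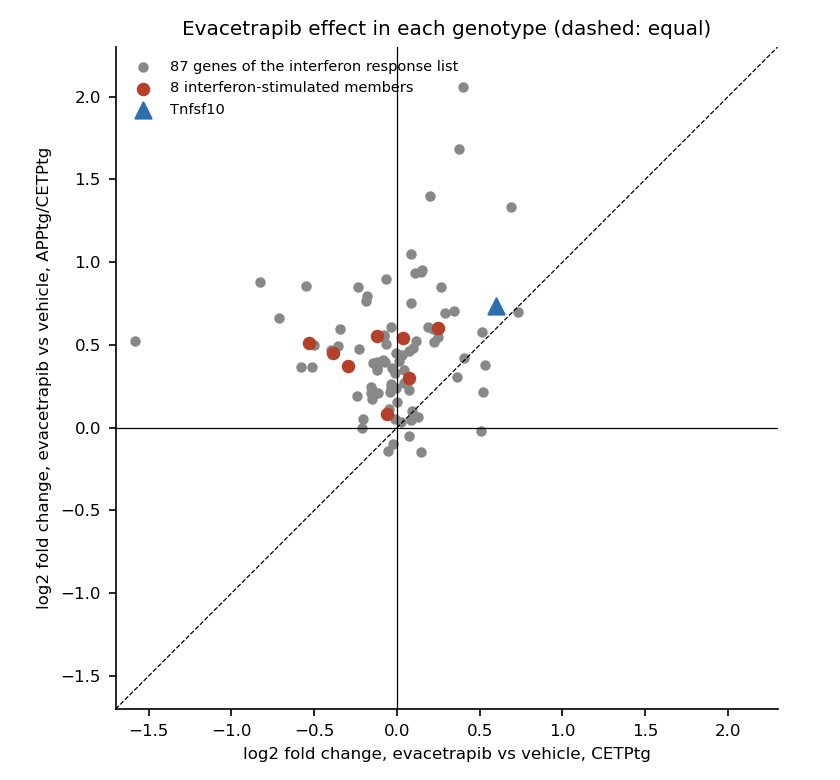
Log2 fold change of evacetrapib versus vehicle in APPtg/CETPtg mice (y axis) against that in CETPtg mice (x axis) for 87 genes of the interferon response list (grey), the 8 interferon-stimulated members (red) and Tnfsf10 (blue triangle), with a dashed line of equal values. Most grey and red points lie above 0 on the y axis and around 0 on the x axis. Tnfsf10, which was selected on its treatment difference, lies near the line at 0.60 and 0.73.

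The difference between the genotypes in the evacetrapib effect was above 0 for 76 of the 87 genes, with a median of 0.40, but 0 were called (adjusted p of at least 0.703, edgeR) and 15 had an unadjusted p below 0.05, against 6.83% of all genes. Between the genotypes over all mice, 78 of 87 were higher in APPtg/CETPtg mice, with a median of 0.23, and 4 were called, a share below the 17.7% of all genes. Psmb10, an immunoproteasome subunit, rose by 0.32 (SE 0.047, adjusted p = 0.000162, edgeR). Phf11d rose by 0.91 (SE 0.23, adjusted p = 0.0105), Dhx58, a sensor of viral RNA, by 0.62 (SE 0.17, adjusted p = 0.0149), and Irf9 passed as given above. Without replicate B 11 genes of the list were called, without S5 9, without H 8 and without S7 7. In vehicle-treated mice the median was -0.01 and 1 gene was called, Psmb10, where 10.4% of all genes were. There 4 had an unadjusted p below 0.05, against 25.2% of all genes. In evacetrapib-treated mice the median was 0.46 and 43 had an unadjusted p below 0.05, against 19.3% of all genes. In these mice 2 were called, where 2.99% of all genes were, Dhx58 with 1.08 (SE 0.20, adjusted p = 0.0098, edgeR) and Psmb10 with 0.30 (SE 0.067, adjusted p = 0.0247). Dhx58 had 1.82 ± 0.228 and 1.27 ± 0.422 CPM in vehicle- and evacetrapib-treated CETPtg mice and 2.04 ± 0.349 and 2.68 ± 0.249 CPM in vehicle- and evacetrapib-treated APPtg/CETPtg mice (SD, n = 4 each).

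Downstream of TRAIL, 27 of 28 genes of receptors, death signalling and inhibitors were tested, and only the decoy receptor Tnfrsf26, at 0 to 0.240 CPM, was too low. Between evacetrapib and vehicle 0 were called over all mice, where 0.0107% of all genes were. Unadjusted p was below 0.05 for 4 of the 27, against 7.91% of all genes, and the median on the log2 scale was 0.03. The smallest p was that of Cflar, which encodes the caspase-8 inhibitor FLIP, with 0.25 (SE 0.075, adjusted p = 0.363, edgeR), followed in the same direction by Birc3, an inhibitor of apoptosis, with 0.27 (SE 0.11, adjusted p = 0.548), and in the other direction by Apaf1, the core of the apoptosome, with -0.17 (SE 0.063, adjusted p = 0.495). Tnfrsf10b, the death receptor for TRAIL in mice, was outside the rule for named genes and is given for its role. It lay between 0.323 and 0.956 CPM and had 0.36 (SE 0.19, adjusted p = 0.658, edgeR) between evacetrapib and vehicle and -0.16 (SE 0.19, adjusted p = 0.620) between the genotypes.

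Between the genotypes 4 of these 27 genes were called, where 17.7% of all genes were, 1 higher and 3 lower in APPtg/CETPtg mice. Bax, a pore-forming protein of mitochondrial apoptosis, rose by 0.24 (SE 0.041, adjusted p = 0.000541, edgeR). Xiap, a caspase inhibitor, fell by 0.21 (SE 0.041, adjusted p = 0.00147), Cflar fell by 0.24 (SE 0.075, adjusted p = 0.0340) and Ikbkg, a subunit of the kinase that activates NF-kappaB, fell by 0.14 (SE 0.044, adjusted p = 0.0355). Without CETPtg replicates A or S3 or without H, 2 were called. Of 17 other ligands of the TNF superfamily 6 were tested, and 0 were called by treatment (4 higher, median 0.13, lowest adjusted p = 0.696, edgeR) or by genotype.

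Most markers of the vessel wall, like Tnfsf10, were higher with evacetrapib. Of these lists, Pecam1, Cdh5, Kdr, Flt1, Acta2, Tagln and Myh11 are genes that the study reported as changed in these same mice. The counts of higher markers and of small p therefore describe the lists and are no independent support. Of the 16 endothelial markers 15 were higher with evacetrapib over all mice (median on the log2 scale 0.23). Of these markers 12 had an unadjusted p below 0.05, against 7.91% of all genes, and 0 were called, against 0.0107%. Their summed level was 745.0 to 851 CPM in vehicle- and 833 to 921 CPM in evacetrapib-treated CETPtg mice, and 749 to 890 CPM and 874 to 957 CPM in APPtg/CETPtg mice, and none of the markers was at 0. Of the 8 markers of pericytes and smooth muscle 8 were higher, with a median of 0.32. Unadjusted p was below 0.05 for 6 of these markers, against 7.91% of all genes. Of them 1 was called, against 0.0107% of all genes, Myh11, a smooth muscle myosin. Their summed level was 120 to 144 CPM in vehicle- and 146 to 155 CPM in evacetrapib-treated CETPtg mice and 104 to 136 CPM and 139 to 156 CPM in APPtg/CETPtg mice. Over the deviations within groups, r of the mean of the endothelial markers was 0.68 with Tnfsf10 and 0.08 with the mean of the 8 interferon-stimulated genes, and that of the pericyte and smooth muscle markers 0.34 and -0.23, as descriptions over 16 mice. Their part in the Tnfsf10 difference was not tested.

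Markers of several cell types differed between the genotypes beside the interferon-stimulated genes. Of 12 microglial markers 8 were higher and 4 lower in APPtg/CETPtg mice, and 4 of the higher were called, where 17.7% of all genes were, namely Tmem119, C1qb, Aif1 and C1qa, with log2 fold changes of 0.30, 0.32, 0.38 and 0.22. The median of the list was 0.07, and Gpr34 and P2ry12 had -0.13 and -0.07. Their summed level was 451 to 505 CPM in vehicle- and 429 to 475 CPM in evacetrapib-treated CETPtg mice and 439 to 520 CPM and 483 to 541 CPM in APPtg/CETPtg mice. Of 11 tested markers of microglia around plaques 0 were called by genotype, with a median of 0.03. Unadjusted p was below 0.05 for 2, against 30.6% of all genes. Within groups, r with the mean of the 8 genes was 0.69 for the plaque-associated and 0.37 for the general microglial markers, and with Tnfsf10 both were 0.34. All 7 oligodendrocyte markers were lower in APPtg/CETPtg mice, with a median of -0.20, and 4 of them were called, Cldn11, Mobp and Mbp among them. Their summed level was 4356 to 5069 CPM in vehicle- and 4331 to 5218 CPM in evacetrapib-treated CETPtg mice and 3541 to 4681 CPM and 3430 to 4393 CPM in APPtg/CETPtg mice. Of 8 astrocyte markers 3 were called, Slc1a2 and Gja1 lower, with log2 fold changes of -0.35 and -0.20, and Aldoc higher, with 0.14. Of 8 neuronal markers 0 were called. Of 14 markers listed for blood leukocytes 4 passed the filter and 0 were called by treatment or genotype. One of them, Siglech, is also in the microglial list and had group means of 12.5 to 13.3 CPM, and the other three, Ccr2, Cd79a and Plac8, had group means of 0.0833 to 0.398 CPM. Over the deviations within groups, r of the 4 was 0.53 with Tnfsf10 and 0.09 with the 8 genes, and 0.53 and 0.08 without Siglech. Their part in these differences was not tested.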

How the data were processed

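RNA from bulk brain of 16 female mice was analysed, 4 in each of 4 groups named by the labels. Directional libraries were prepared by the authors from poly(A) RNA. Reads were trimmed with Trimmomatic 0.39, mapped to mm10 with STAR 2.7.8a and assigned to genes with HTSeq-count. The annotation and the strand setting of the counting are not given in the sources used here. The deposited values are raw counts, and 0 columns of values had no mouse. GENCODE M21, from which positions and lengths were taken, holds 55141 of the 55487 identifiers.

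Genes needed 10 counts in 4 or more mice, which 18609 reached. They were fitted in edgeR 4.0.16 (R 4.3.3, quasi-likelihood), with TMM library sizes and Benjamini-Hochberg adjustment over all of them, two-sided. The genotypes were compared with a treatment term and the treatments with a genotype term. Comparisons within groups and the difference of effects came from a model with a mean for each group. Calls needed an adjusted p no higher than 0.05 and a fold change of 5% or more, which follows the study's thresholds. CPM used TMM library sizes, log2 CPM a prior count of 2. Correlations used deviations from group means and permutations within groups. The fit was tested on simulated counts.

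The members and the gene lists were chosen with earlier results of these data known, so no list was tested as a set and no p was adjusted over a list alone. By rule, the text names the 9 members, from each list the called genes and up to 2 others with the smallest p in each direction, and the 8 genes nearest in pattern. Some genes that the rule names are not reported here. Promoter windows came from RefSeq (GRCm38.p6). The alternatives were DESeq2's size factors, the Wald test of DESeq2 1.42.0, limma-voom (limma 3.58.1), other filters on low counts, no term for the other factor, a prior count of 0.5, group means not removed, and each mouse left out. A fit with the plate row as a block was added after seeing the data.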

Additional observations from a re-analysis of the deposited data

Results flagged for a closer look

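In 5 of the 36 combinations of gene and group, 1 mouse stood apart from the rest of its group by Dixon's ratio. This ratio is the gap to the nearest mouse over the range of the group. Chance takes it past its limit of 0.829 in about 1 of 20 groups. The values of the 8 interferon-stimulated genes move together, so these are not independent. Replicate B of the evacetrapib-treated CETPtg group was the high mouse in 4 of them. It had 8.604 CPM of Ifit1 against 3.51 in the next mouse (ratio 0.847) and 17.7 CPM of Ifit3 against 8.82 (ratio 0.892). It had 7.14 CPM of Bst2 against 3.79 (ratio 0.901) and 14.7 CPM of Oasl2 against 5.27 (ratio 0.871). Replicate S1 of the vehicle-treated CETPtg group had 3.87 CPM of Isg15 against 2.10 in the next mouse (ratio 0.885). The Tnfsf10 values of these 2 mice, 2.94 and 2.13 CPM, lay within those of their groups.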

How the results depend on the processing

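Of 932 values recomputed for 44 results under other settings, 872 kept their direction and their side of the threshold or moved by less than the spread. The Tnfsf10 difference between evacetrapib and vehicle was 0.62 to 0.67 under other tools, scalings and filters and 0.56 to 0.74 when 1 mouse was left out. The number of members called between the genotypes was 5 without a filter on low counts, 2 with at least 10 counts in every mouse and 2 with the plate row as a block, and 1 to 4 without 1 mouse; the cause was not tested. Without 1 mouse, 3 to 11 genes of the interferon response list and 2 to 5 of the TRAIL pathway list were called between the genotypes. The genotype difference of Tnfsf10 then ran from -0.011 to 0.18 and its difference in the evacetrapib effect from -0.10 to 0.33, both below 0 without replicate G only. Since r of Tnfsf10 with each gene was near 0, its sign turned in single fits. With group means not removed r was 0.020 for Ifit3 and 0.15 for Bst2. Without 1 mouse, r ran from -0.25 to 0.20 for Ifit1, -0.35 to 0.15 for Ifit3, -0.12 to 0.25 for Isg15, -0.21 to 0.25 for Irf7, -0.26 to 0.17 for Bst2, -0.16 to 0.34 for Oasl2, -0.069 to 0.54 for Ifi27 and -0.35 to 0.15 for Usp18, with 0 of the 8 past an adjusted p of 0.05 in any setting (permutation test). Counting error was largest for Usp18, Isg15 and Tnfsf10, whose lowest counts in a mouse were 28, 31 and 36. The replicate names pair no mice, since each mouse has its own. Each plate row holds 1 mouse of either genotype with the same treatment, so the fit with the plate row as a block compares the genotypes within rows.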

Other observations

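Socs3, a feedback inhibitor of cytokine receptors, differed between the genotypes in vehicle-treated mice. Of the 16 genes of receptors and signalling 1 was called there, Socs3, where 10.4% of all genes were. Socs3 had 3.20 ± 0.429 CPM in CETPtg and 4.80 ± 1.20 CPM in APPtg/CETPtg mice (SD, n = 4 each), a log2 fold change of 0.57 (SE 0.15, adjusted p = 0.0232, edgeR). In evacetrapib-treated mice it had 3.77 ± 0.208 and 3.99 ± 0.446 CPM (SD, n = 4 each) and was not called, and the difference between the genotypes in the evacetrapib effect was -0.48 (SE 0.21, adjusted p = 0.708, edgeR). Zbp1, a sensor of nucleic acids that can start cell death and is itself an interferon-stimulated gene, had 0.397 ± 0.223 CPM in vehicle- and 1.12 ± 0.739 CPM in evacetrapib-treated APPtg/CETPtg mice (SD, n = 4 each), a log2 fold change of 1.40 (SE 0.46, adjusted p = 0.357, edgeR). In CETPtg mice it had 0.483 ± 0.158 and 0.563 ± 0.265 CPM (SD, n = 4 each).

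Of the TRAIL pathway list, Bax was called between the genotypes in both treatments, with log2 fold changes of 0.26 in vehicle-treated (SE 0.058, adjusted p = 0.0089, edgeR) and 0.22 in evacetrapib-treated mice (SE 0.058, adjusted p = 0.0464). Xiap and Ikbkg were called in vehicle-treated mice, with log2 fold changes of -0.27 (SE 0.056, adjusted p = 0.0066, edgeR) and -0.20 (SE 0.061, adjusted p = 0.0392). Of the 27 genes tested, 1 was called higher and 2 lower in vehicle-treated mice, where 10.4% of all genes were called. In evacetrapib-treated mice 1 was called, where 2.99% of all genes were. Both shares are close to those of all genes. Casp6, an executioner caspase, had a log2 fold change of 0.44 between evacetrapib and vehicle in APPtg/CETPtg mice (SE 0.13, adjusted p = 0.291, edgeR).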
